A study of Mus musculus with 10 samples.

Results

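The genes described here are 46 genes of the interferon response and of antigen presentation, measured in mouse colonic organoids with and without the nuclear receptor PPARγ and with and without the PPARγ agonist rosiglitazone. They were taken from a fixed list of symbols and fall into 33 antiviral genes, 8 genes of class I peptide presentation and the immunoproteasome, and 5 genes of class II presentation. Probe sets that carried more than 1 symbol were set aside, and a gene with several of its own was represented by its brightest, judged by the 10-array mean. By this rule 42 of the 46 were measured, among 18820 genes in all, and they comprise 29 antiviral, 8 class I and 5 class II genes. The other members have no value of their own here: Ifi44 had no probe set in the annotation used, Parp9 and Dtx3l share theirs with each other, and Igtp shares its probe set with Irgm2.

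Interferons are secreted by cells that sense foreign nucleic acid, and they act on receptors of the same and of neighbouring cells. Type I and type III interferons act through STAT2 and IRF9 on the interferon-stimulated response element of antiviral genes, whereas interferon gamma acts on the GAS element and through IRF1. In epithelium the same signals raise the machinery that cuts proteins into peptides and loads them on MHC class I, and interferon gamma can induce class II through the coactivator CIITA.

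Organoids were grown from crypts of the colon of male mice on a C57BL/6J background, 3 wild-type and 3 homozygous knockout littermates. The knockout carries loxP sites around exons 1 and 2 of Pparg and a Cre recombinase driven by the villin promoter, so recombination is directed to the intestinal epithelium, and the wild-type animals are littermates for which the labels name no other allele. Organoids received rosiglitazone at 1 µM or the vehicle, DMSO at 0.1%, for 24 h, in medium with growth factors and no added interferon named in the labels. The 4 groups were wild-type vehicle (n = 2, mice 42 and 47), wild-type rosiglitazone (n = 3, mice 42, 47 and 48), knockout vehicle (n = 2, mice 44 and 46) and knockout rosiglitazone (n = 3, mice 44, 45 and 46). Mice 45 and 48 therefore had a rosiglitazone array only. The values of a group are given in this order of mice throughout. All values are RMA expression on the log2 scale, as deposited, and differences are in log2 units, so that a difference of 1 is a doubling. Because each array is a bulk RNA sample, fewer cells of a type and less RNA per cell cannot be told apart. The p-values rest on the spread between arrays of a group. The main fit treats the arrays as independent, although mice 42, 44, 46 and 47 each gave an array in both treatments.

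The arrays had the profile of epithelium. Of 12 colonic epithelial markers, 11 lay above the median probe set level of 3.6, while 21 of 22 immune markers and 12 of 13 stromal and endothelial markers lay at or below it. The epithelial marker below this level was Slc26a3, with a mean of 2.60. The mean of the immune list per array was 2.63 to 2.65 in wild-type vehicle, 2.64 to 2.70 in wild-type rosiglitazone, 2.61 to 2.67 in knockout vehicle and 2.61 to 2.75 in knockout rosiglitazone. Cd68, a lysosomal protein that is also present outside macrophages, was the immune marker above the median level, with means of 8.42 in wild-type vehicle and 7.59 in knockout vehicle. Both arrays of mouse 46 stood apart on the first principal component of all tested probe sets, which held 27.4% of the variance. They scored 39.3 and 31.8, and the other 8 arrays lay between -19.6 and 4.1. Pparg itself read 7.59 to 8.41 in wild-type arrays and 7.37 to 8.78 in knockout arrays, so its probe set gave no check of the deletion.

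The promoters of the 3 classes were compared for the elements named above. RefSeq promoters of GRCm38.p6, each from 250 bases before to 50 bases after the start of a gene, were matched for 35 of the 46 members. The members without an entry were Dhx58, H2-Ab1, Usp18, Tap2, Mx2, Ciita, Nlrc5, Zbp1, Parp9, Cd74 and Parp14. Each was searched on both strands for the core of the interferon-stimulated response element (GAAA, any 2 bases, GAAA), for the GAS core (TTC, any 3 bases, GAA) and for the CCAAT box. The response element core was present in 16 of 35 members, 45.7%, against 3.99% of all 27025 genes in the table. By class it was found in 15 of 27 antiviral genes, in 1 of 6 class I genes and in 0 of 2 class II genes. The GAS core was present in 7 of 35 members, 20%, against 9.55% of all genes, and CCAAT in 14 of 35, 40%, against 41.1%. CCAAT was found in 4 of 6 class I and in 2 of 2 class II promoters. A match is a description of the letters and no statement about binding.

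The stretches below show these cores for some of the members described in detail, with the match in capitals, read along the strand of the gene. Stat2, Gbp2, Irgm1 and Trim21 also hold the response element core and are not shown. Antiviral genes come first, and B2m, the class I gene with the response element core among the 6 searched, follows. They lie at chr4:156200855-156200916 on the minus strand (Isg15, 3 overlapping matches), chr19:34640765-34640833 on the plus strand (Ifit1), chr19:34583353-34583436 on the plus strand (Ifit3), chr5:120907510-120907565 on the minus strand (Oas1a, 2 overlapping matches, the nearer starting 14 bases before the start site), chr5:92349053-92349139 on the minus strand (Cxcl10) and chr2:122147528-122147577 on the plus strand (B2m). In Ifit1 and Ifit3 the core reads on the opposite strand, as TTTC, any 2 bases, TTTC.
Isg15: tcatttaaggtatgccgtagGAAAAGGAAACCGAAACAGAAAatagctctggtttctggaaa
Ifit1: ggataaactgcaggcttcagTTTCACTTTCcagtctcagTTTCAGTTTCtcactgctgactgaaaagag
Ifit3: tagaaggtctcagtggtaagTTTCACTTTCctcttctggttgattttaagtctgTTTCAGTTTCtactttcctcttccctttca
Oas1a: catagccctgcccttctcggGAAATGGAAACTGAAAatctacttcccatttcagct
Cxcl10: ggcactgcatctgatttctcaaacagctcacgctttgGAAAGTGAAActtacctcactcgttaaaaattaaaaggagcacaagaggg
B2m: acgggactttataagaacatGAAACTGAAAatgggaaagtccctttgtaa

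The GAS core of Ifit2 and of the immunoproteasome gene Psmb8 is shown next, at chr19:34550444-34550481 and chr17:34198058-34198146, both on the plus strand. Irf1 and Oas1a also hold the GAS core, which is not shown for them. Psmb9, the member with the smallest p-value of all, is shown with its whole window, chr17:34187281-34187580 on the minus strand, in which the CCAAT box on the opposite strand is in capitals. Psmb9 and the peptide transporter gene Tap1 are divergent neighbours: their start sites are 226 bases apart and their windows share 275 of 300 bases. The CCAAT boxes of the class II genes H2-Aa (minus strand) and H2-Eb1 (plus strand) lie at chr17:34287847-34287891 and chr17:34305788-34305856.
Ifit2: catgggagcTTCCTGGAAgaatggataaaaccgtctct
Psmb8: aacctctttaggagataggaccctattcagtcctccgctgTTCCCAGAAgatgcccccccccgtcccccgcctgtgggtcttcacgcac
Psmb9: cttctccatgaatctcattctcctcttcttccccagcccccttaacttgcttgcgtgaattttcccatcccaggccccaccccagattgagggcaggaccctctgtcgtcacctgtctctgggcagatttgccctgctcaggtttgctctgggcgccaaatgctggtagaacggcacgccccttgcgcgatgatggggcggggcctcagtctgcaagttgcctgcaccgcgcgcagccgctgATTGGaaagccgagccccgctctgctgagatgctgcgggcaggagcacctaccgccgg
H2-Aa: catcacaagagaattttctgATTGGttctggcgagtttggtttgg
H2-Eb1: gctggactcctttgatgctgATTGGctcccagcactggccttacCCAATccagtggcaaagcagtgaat

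Without added interferon, most antiviral and all class I genes read above the median probe set level, and most class II genes did not. This level is the median over all 35556 probe sets. The share of all genes above it was not counted, and no detection call was made. Of the measured members, 34 of 42 had a mean above the median probe set level. These were 25 of 29 antiviral genes, 8 of 8 class I genes and 1 of 5 class II genes. B2m, the invariant light chain of class I, had the highest mean, 11.33, and Lgals3bp, a secreted galectin-binding glycoprotein, followed at 10.85. Levels of different genes are probe set values and were not compared further.

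No member passed an adjusted p of 0.05 in any of the 5 comparisons (limma, Benjamini-Hochberg adjustment over 23099 probe sets). Among all probe sets the share that passed was 0% for rosiglitazone in wild type, 0% for rosiglitazone in knockout, 0% for the difference between these responses, 0% for genotype in vehicle and 0.0216% for genotype in rosiglitazone. By limma's unadjusted p under 0.05, 0 members passed for rosiglitazone in wild type against 0.991% of all probe sets, 0 in knockout against 3.06%, and 0 for the difference of the responses against 2.32%. With vehicle, 5 of 42 members passed for genotype, all lower in knockout, against 5.69% of all probe sets. With rosiglitazone, 2 of 42 passed, both lower in knockout, against 4.81%. The plot of differences by class shows all 42 members in the 5 comparisons.

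**Figure D1:**
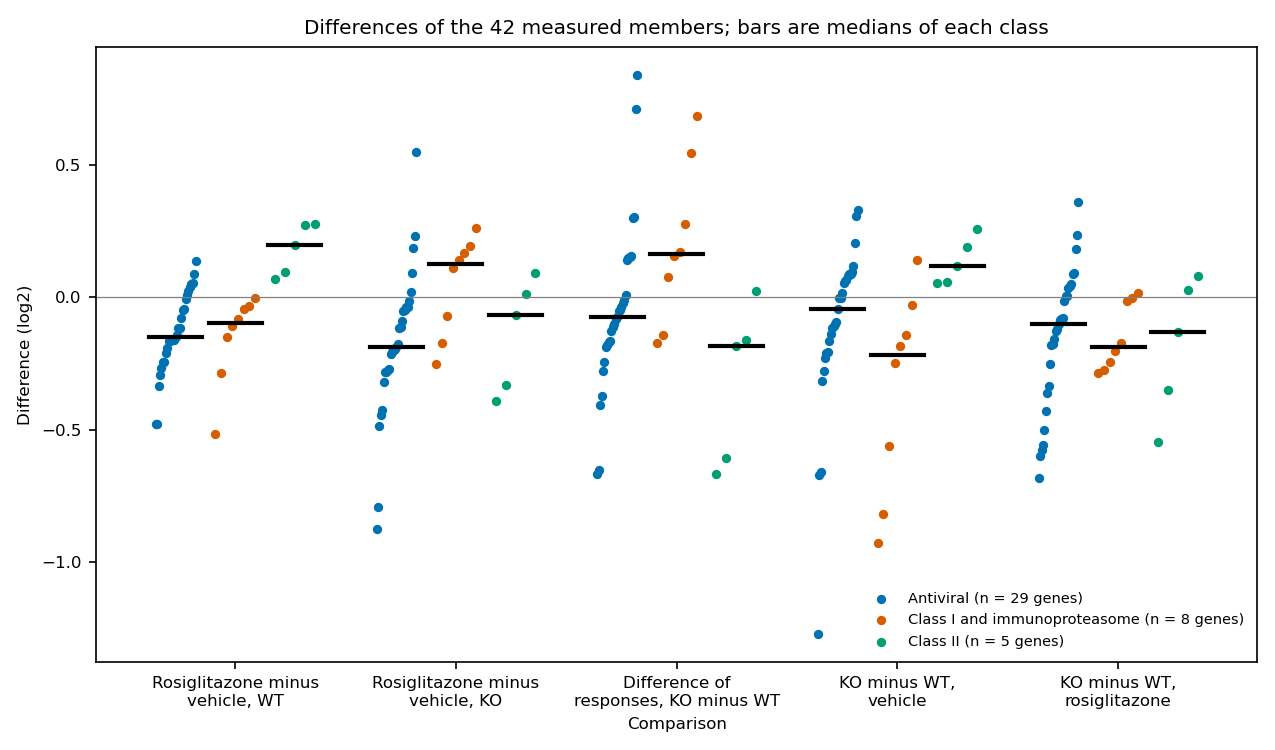
Each point is 1 of the 42 measured members, at its difference (y axis, log2 units) in 1 of 5 comparisons (x axis), coloured by class, and black bars are class medians. Class I medians lie at -0.22 and -0.19 in the genotype comparisons, and antiviral medians at -0.15 and -0.19 in the rosiglitazone comparisons.

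Loss of PPARγ in vehicle-treated organoids was compared first. Class I and immunoproteasome genes had a median difference of -0.22 (knockout minus wild type), and 7 of 8 read lower, while the median over all genes was 0.03. Antiviral genes were mixed, with 17 of 29 lower and a median of -0.05. The 5 class II genes all read higher, with a median of 0.12. The epithelial markers showed the same direction as class I: 10 of 12 read lower with a median of -0.13, in 6 of 12 both knockout arrays lay below both wild-type arrays, and Car1, a carbonic anhydrase of colonocytes, had a difference of -0.87 (SE 0.25). Their part in the class I difference was not tested. In 11 of 42 members both knockout arrays lay below both wild-type arrays, against 16.1% of all probe sets, and 6 of these were class I genes. Of the class I genes, Tapbp and Nlrc5 were barely apart. Their nearest arrays read 8.91 in knockout against 8.92 in wild type (Tapbp) and 5.40 against 5.41 (Nlrc5). In 5 of 42 the knockout arrays lay above, against 23% of all probe sets.

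The immunoproteasome replaces the catalytic subunits of the standard proteasome and yields peptides suited to class I. Psmb9, which encodes one of its catalytic subunits, read 6.58 and 6.79 in the wild-type vehicle arrays of mice 42 and 47, and 5.88 and 5.85 in the knockout vehicle arrays of mice 44 and 46. Under rosiglitazone the values were 6.34, 6.72 and 6.14 for wild-type mice 42, 47 and 48, and 6.31, 6.02 and 6.04 for knockout mice 44, 45 and 46. The vehicle groups did not overlap, whereas the rosiglitazone groups did. In vehicle the difference was -0.82 (SE 0.20) with an adjusted p of 0.787 (limma, Benjamini-Hochberg). Over 21 alternative settings this difference stayed between -0.93 and -0.71, and the adjusted p between 0.358 and 1. In rosiglitazone the difference was -0.27 (SE 0.16). The response to rosiglitazone differed between genotypes by 0.54 (SE 0.25), with an adjusted p of 1.

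Psmb8, the catalytic subunit encoded beyond Tap1 on chromosome 17, read 4.26 and 5.32 in wild-type vehicle and 4.04 and 3.68 in knockout vehicle. With rosiglitazone its values were 4.29, 4.90 and 3.63 in the wild-type arrays of donors 42, 47 and 48 and 4.12, 4.06 and 3.92 in the knockout arrays of donors 44, 45 and 46. The wild-type arrays spread widely and the array of mouse 47 was the highest in both treatments. The vehicle difference was -0.93 (SE 0.39, adjusted p 0.855 by limma and Benjamini-Hochberg), and it was -0.40 without the vehicle array of mouse 47 and -1.45 without that of mouse 42. Psmb10, the remaining inducible subunit, had a vehicle difference of -0.56 (SE 0.33) and ranged from 6.63 to 7.79 over the 10 arrays.

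Tap1 and Tap2 form the transporter that carries peptides into the endoplasmic reticulum. Although Tap1 shares its promoter window with Psmb9, it read 7.16 and 7.25 in wild-type vehicle and 7.35 and 7.0 in knockout vehicle, and the groups overlapped (difference -0.03, SE 0.21). With rosiglitazone it read 7.27, 7.25 and 7.09 in wild type and 7.38, 6.73 and 6.90 in knockout. Tap2 had a vehicle difference of -0.19 (SE 0.15), and Tapbp, the tapasin that holds class I at the transporter, one of -0.14 (SE 0.15). Nlrc5, the class I transactivator, had -0.25 (SE 0.19) at the brightest of its 19 probe sets. The other Nlrc5 probe sets went both ways in vehicle, from -0.31 to 0.24. B2m was the class I gene that read higher: 11.33 and 11.41 in wild-type vehicle against 11.44 and 11.59 in knockout vehicle, a difference of 0.14 (SE 0.18). With rosiglitazone B2m read 10.96, 11.49 and 11.34 in wild type and 11.20, 11.17 and 11.41 in knockout, and the groups overlapped. None of these passed the adjusted threshold.

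Of the antiviral genes, Zbp1, Cxcl10 and Oas1a had the largest negative differences in vehicle. Zbp1, a sensor of Z-form nucleic acid that can trigger cell death, read 3.67 and 4.74 in wild-type vehicle and 2.98 and 2.89 in knockout vehicle. With rosiglitazone it read 3.37, 4.68 and 3.69 in the wild-type arrays of donors 42, 47 and 48 and 3.43, 3.62 and 3.40 in the knockout arrays of donors 44, 45 and 46. Mouse 47 was the highest in both treatments, and the other arrays lay near or below the median probe set level. The vehicle difference was -1.27 (SE 0.40, adjusted p 0.846 by limma and Benjamini-Hochberg), and -0.73 without the vehicle array of mouse 47 and -1.81 without that of mouse 42.

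Cxcl10 encodes a chemokine that attracts T cells through CXCR3. It read 3.92 and 3.55 in wild-type vehicle, 3.67, 3.70 and 3.71 in wild-type rosiglitazone, 3.17 and 2.95 in knockout vehicle, and 3.01, 3.38 and 2.63 in knockout rosiglitazone. It was thus lower in every knockout array than in every wild-type array, in both treatments. The wild-type values lay near the median probe set level of 3.6, and all knockout values lay below it, down to 2.63. The difference was -0.67 (SE 0.22, adjusted p 0.846) in vehicle and -0.68 (SE 0.18, adjusted p 0.722 by limma and Benjamini-Hochberg) in rosiglitazone. Over the alternatives it ranged from -0.86 to -0.49 in vehicle and from -0.87 to -0.49 in rosiglitazone, with adjusted p of at least 0.424 and 0.291.

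Oas1a, an oligoadenylate synthetase that activates RNase L on double-stranded RNA, read 7.01 and 7.35 in wild-type vehicle and 6.73 and 6.31 in knockout vehicle. With rosiglitazone the genotypes overlapped, at 6.75, 7.17 and 6.17 in wild type and 6.86, 6.61 and 6.77 in knockout. The vehicle difference was -0.66 (SE 0.28, adjusted p 0.855 by limma and Benjamini-Hochberg). A further probe set, shared by Oas1a and its close paralog Oas1g, read 7.14 and 7.46 in wild-type vehicle and 6.92 and 6.46 in knockout vehicle. With rosiglitazone this shared probe set read 7.04, 7.54 and 7.03 in wild type and 7.02, 7.01 and 6.77 in knockout. Here the genotypes were barely apart and did not overlap, unlike at the probe set of Oas1a alone. The signal cannot be assigned to 1 gene of this family with certainty. Ifi35 and the sensor Dhx58 also did not overlap between the vehicle groups, with differences of -0.23 (SE 0.15) and -0.14 (SE 0.20), and Samd9l and Irgm1 did so in the other direction, with 0.33 (SE 0.34) and 0.31 (SE 0.20).

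**Figure D2:**
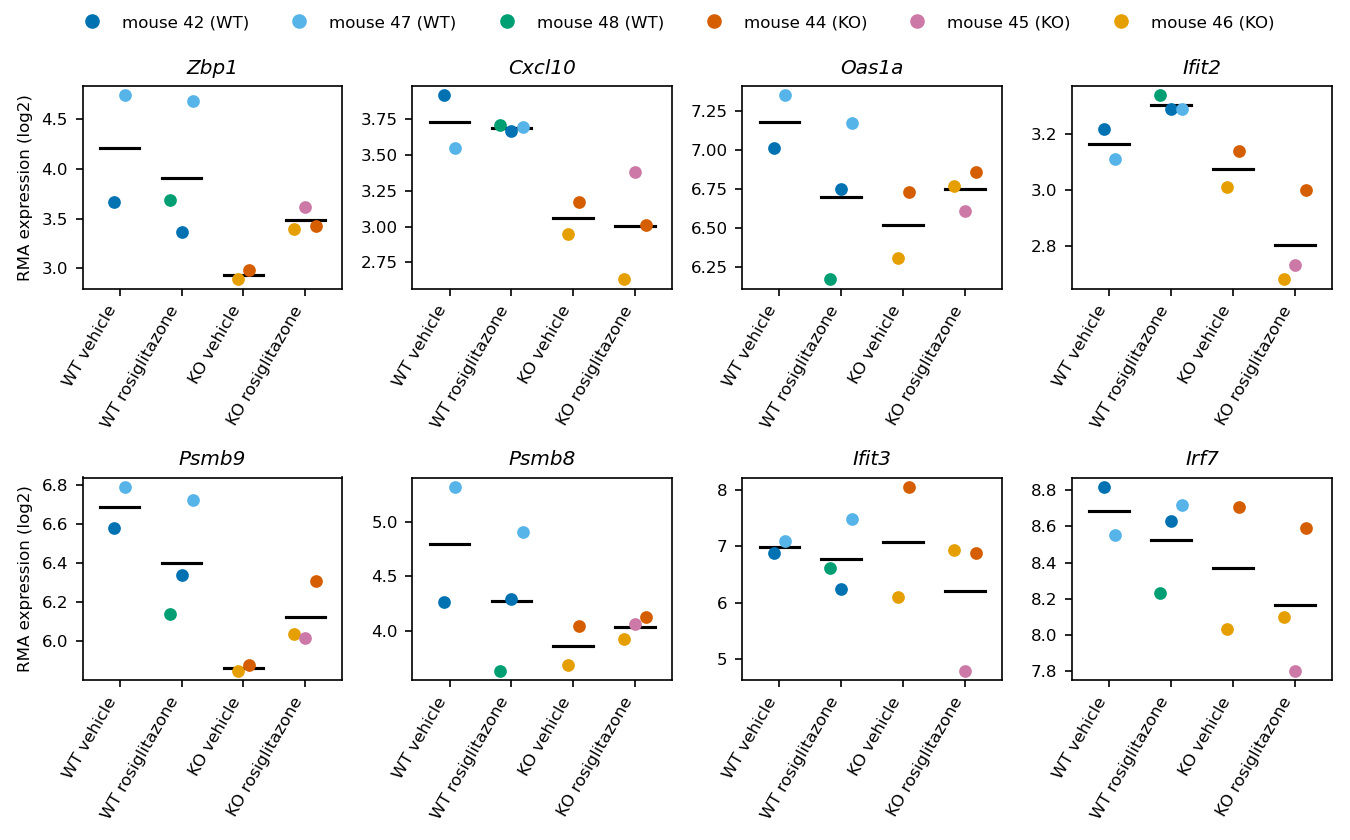
RMA expression (y axis, log2) of 8 members in the 4 groups (x axis), with 1 point per array coloured by donor mouse and a black bar at the group mean (n = 2 for vehicle and n = 3 for rosiglitazone). Psmb9, Zbp1, Oas1a, Psmb8 and Cxcl10 lie lower in both knockout vehicle arrays than in both wild-type vehicle arrays, and Ifit3 and Irf7 spread more between knockout mice than between genotypes.

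With rosiglitazone present in both genotypes, the class I median was -0.19 with 7 of 8 genes lower, the antiviral median -0.10 with 19 of 29 lower, and the class II median -0.13 with 3 of 5 lower, beside a median of -0.0012 over all genes. Of the epithelial markers 6 of 12 were lower here, with a median of -0.0011. The genotype comparisons use different arrays, but mice 42, 47, 44 and 46 supplied both, so they are not independent. In both, 6 of 8 class I genes were lower and 0 higher, beside 27.3% of all genes lower and 32.6% higher in both. Of the antiviral genes, 12 were lower in both, 5 higher in both and 12 opposite. Groups did not overlap in 2 of 42 members, Ifit2 and Cxcl10, both lower in knockout, against 4.47% of all probe sets lower. The count in the higher direction was 0 of 42 against 4.22%.

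Ifit2, a member of the tetratricopeptide family that binds viral RNA, had the smallest p in that comparison. It read 3.29, 3.29 and 3.34 in wild-type rosiglitazone and 3.00, 2.73 and 2.68 in knockout rosiglitazone. In vehicle it read 3.22 and 3.11 in wild type and 3.14 and 3.01 in knockout, and there the groups overlapped. The difference in rosiglitazone was -0.50 (SE 0.12, adjusted p 0.582 by limma and Benjamini-Hochberg) and ranged from -0.60 to -0.43 over the alternatives. All 10 values lay below the median probe set level. In vehicle the difference was -0.09 (SE 0.15), and the responses to rosiglitazone differed between genotypes by -0.41 (SE 0.19), with an adjusted p of 1.

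Rosiglitazone was then compared with vehicle within each genotype. In wild type the antiviral median was -0.15 with 22 of 29 genes lower, the class I median -0.09 with 8 of 8 lower, and the class II median 0.20 with 5 of 5 higher, beside 0.02 over all genes. In knockout the antiviral median was -0.19 with 24 of 29 lower, the class I median 0.13 with 5 of 8 higher, and the class II median -0.07 with 3 of 5 lower, beside -0.02 over all genes. The epithelial markers again went with class I, 10 of 12 lower in wild type (median -0.07) and 10 of 12 higher in knockout (median 0.06), and their part was not tested. Over all members the split in knockout was 12 higher and 30 lower, and 19 higher and 23 lower once arrays were centred on their medians. That centring turned the difference of the responses from 16 higher and 26 lower to 21 and 21. Groups did not overlap in 2 members higher and 3 lower in wild type, against 8.65% and 6.78% of all probe sets, and in 2 higher and 3 lower in knockout, against 5.81% and 7.93%.

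The 4 mice with both treatments allow the response to be read within a mouse, and the antiviral genes then went opposite ways in mice of the same genotype. In wild-type mouse 42 the antiviral median was -0.26 with 25 of 29 genes lower, and in wild-type mouse 47 it was 0.13 with 19 higher. In knockout mouse 44 it was -0.16 with 20 lower, and in knockout mouse 46 it was 0.14 with 21 higher. Over all genes the 4 within-mouse medians lay between -0.01 and 0.01. The class I medians were -0.05 in mouse 42, -0.04 in mouse 47, 0.01 in mouse 44 and 0.12 in mouse 46, with 4 of 8 genes higher in each of the first 3 mice and 6 of 8 in mouse 46. Those of class II were 0 in mouse 42, 0.17 in mouse 47, -0.11 in mouse 44 and -0.05 in mouse 46.

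Both wild-type mice had higher values with rosiglitazone for 6 of 42 members and lower values for 10, against 25.3% and 25.8% of all probe sets. Both knockout mice had higher values for 8 members and lower values for 7, against 24.4% and 25.4%. In 5 of 42 members, 11.9%, the wild-type mice went one way and the knockout mice the other, beside 11.8% of all probe sets. These were Zbp1, Oas1a, Ifit2, Isg15 and Psmb9. At the probe set shared by Oas1a and Oas1g the wild-type mice differed, from 7.14 to 7.04 in mouse 42 and from 7.46 to 7.54 in mouse 47. No member (0 of 42) went the same way in all 4 mice.

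The extremes of the antiviral genes fell in single arrays. After the mean of each gene was subtracted, the median antiviral deviation was 0.29 in the knockout vehicle array of mouse 44 and -0.32 in the knockout rosiglitazone array of mouse 45. The remaining arrays lay between -0.18 and 0.21. The array of mouse 44 held the highest value of 13 of 29 antiviral genes, 44.8%, against 10.4% of all genes, and the array of mouse 45 the lowest value of 12 of 29, 41.4%, against 15.0% of all genes. The knockout vehicle array of mouse 46 lay at -0.18, so this group held both a high and a low array. In class I the 5 knockout arrays lay between -0.16 and -0.07 and the 5 wild-type arrays between -0.05 and 0.27, so the genotypes did not overlap in this median. The gap between them was 0.021, and 0.001 after the median over all genes was subtracted from each array, beside a pooled SD of 0.108 between arrays of a group, and the 5 arrays of a genotype came from 3 mice. Class II medians lay between -0.09 and 0.10 and did not order by group.

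**Figure D3:**
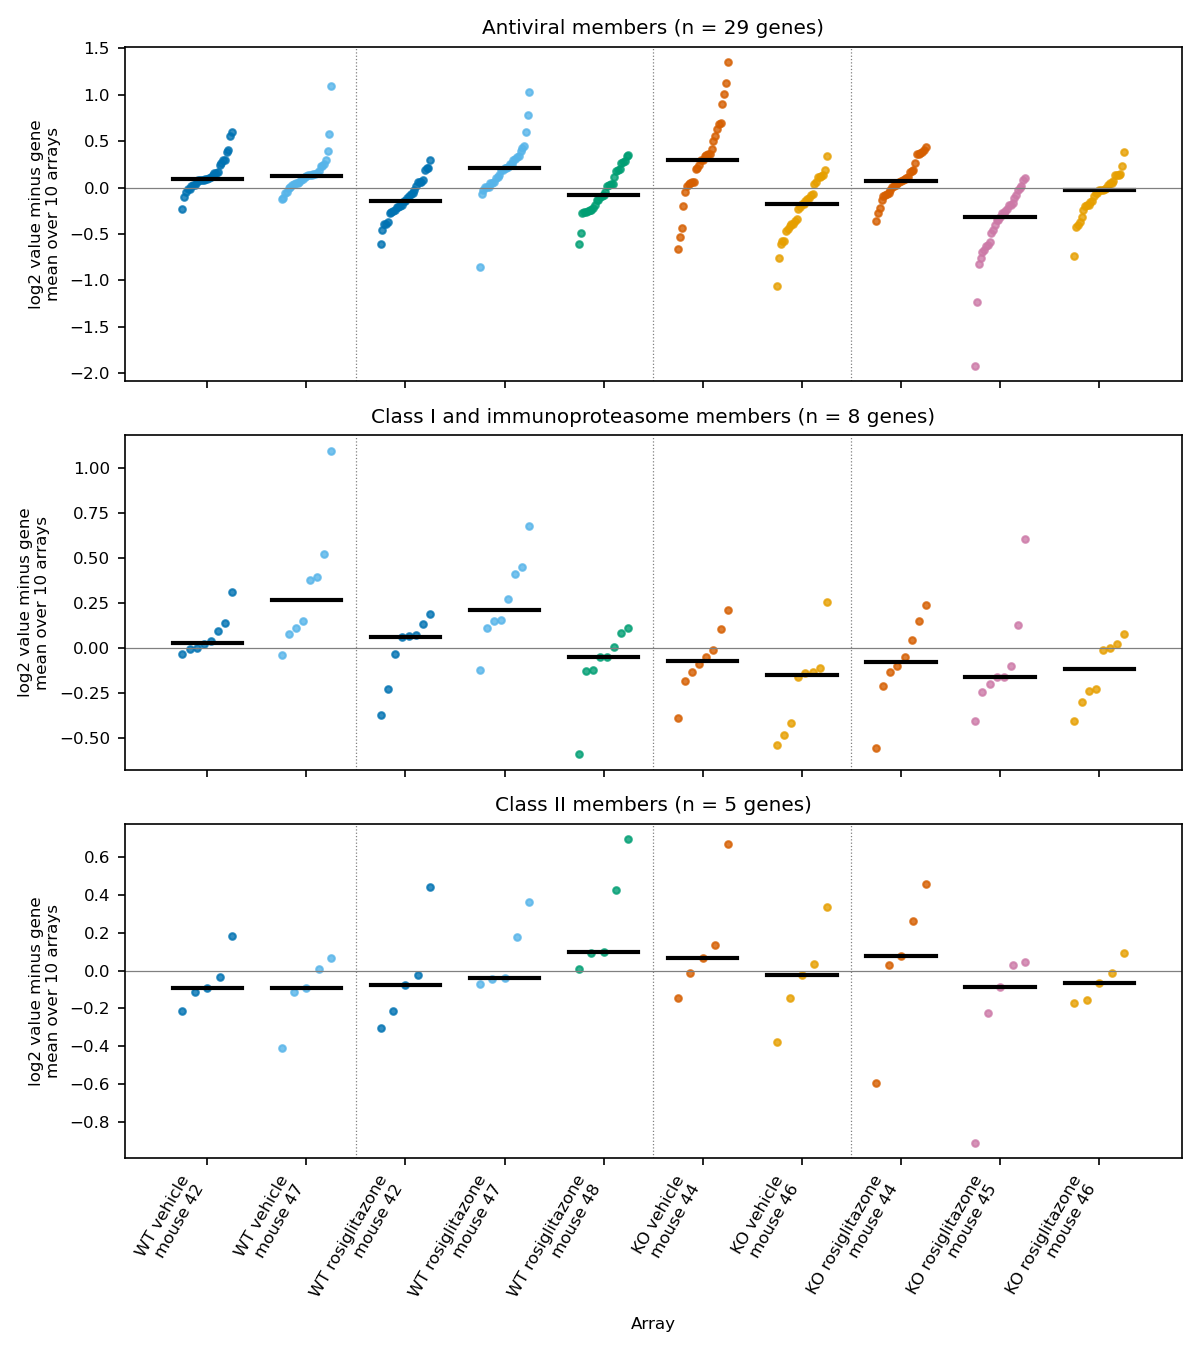
Deviation of each member from its own mean over 10 arrays (y axis, log2) in each array (x axis, by group and donor mouse), with points coloured by mouse, sorted within an array, and black bars at the class median. The antiviral median is highest in the knockout vehicle array of mouse 44 (0.29) and lowest in the knockout rosiglitazone array of mouse 45 (-0.32). The class I median is below 0 in all 5 knockout arrays and in the wild-type rosiglitazone array of mouse 48 (-0.05).

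Of the 11 effector genes, 6 were highest in the knockout vehicle array of mouse 44 and 6 lowest in the knockout rosiglitazone array of mouse 45, where their median deviations were 0.55 and -0.59. Ifit3, chosen after its values were seen because it had the widest range of all members, read 8.06 and 6.10 in the knockout vehicle arrays of mice 44 and 46, and 6.89, 4.79 and 6.94 in the knockout rosiglitazone arrays of mice 44, 45 and 46. Wild-type values were 6.88 and 7.10 without drug and 6.25, 7.49 and 6.61 with it. The knockout extremes thus enclosed all wild-type values. The rosiglitazone difference in knockout was -0.88 (SE 0.69), -1.85 without the vehicle array of mouse 46 and 0.10 without that of mouse 44.

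Ifit1, which recognises viral RNA by its cap, read 7.57 and 7.33 in wild-type vehicle, 6.58, 7.79 and 7.54 in wild-type rosiglitazone, 7.88 and 7.11 in knockout vehicle, and 7.16, 5.96 and 7.0 in knockout rosiglitazone. It too was highest in mouse 44 and lowest in mouse 45, and the groups overlapped in both genotype comparisons and in both rosiglitazone comparisons. Of the other effectors, Rsad2 (viperin) ranged from 4.09 to 6.27, Mx2 from 2.31 to 3.58, Oasl2 from 7.58 to 8.80 and Samd9l from 7.90 to 9.29, each highest in the knockout vehicle array of mouse 44. Rsad2 and Mx2 were lowest in the knockout vehicle array of mouse 46, and Oasl2 and Samd9l in the knockout rosiglitazone array of mouse 45. Bst2 (tetherin) had the narrowest range of all members, 6.38 to 6.61. Xaf1 and Ifi35 were lowest in mouse 45, at 5.48 and 7.17.

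Among knockout arrays the transcription factors Irf7 and Stat2 were also highest in mouse 44 and lowest in mouse 45. Irf7, the amplifier of type I interferon transcription, read 8.82 and 8.55 in wild-type vehicle, 8.63, 8.72 and 8.23 in wild-type rosiglitazone, 8.71 and 8.03 in knockout vehicle, and 8.59, 7.80 and 8.10 in knockout rosiglitazone. Among knockout arrays those of mouse 44 were high and those of mice 45 and 46 low, in either treatment. Its genotype differences of -0.32 (SE 0.29) in vehicle and -0.36 (SE 0.24) in rosiglitazone were near their errors, and the former was 0.02 without the vehicle array of mouse 46. Stat2, a signal transducer of the type I pathway, read 7.53 and 7.72, then 7.44, 7.88 and 7.82, in wild-type vehicle and rosiglitazone. Its knockout values were 7.99 and 7.50 without drug and 7.71, 7.0 and 7.68 with it. Mouse 46 thus read close to mouse 44 with rosiglitazone, but mouse 44 was again highest and mouse 45 lowest. Irf1, the factor induced by interferon gamma, departed from this pattern: it was lowest, at 6.99, in the vehicle array of mouse 44 and highest, at 7.61, in that of mouse 46. Its other values were 7.45 and 7.57 in wild-type vehicle, 7.48, 7.40 and 7.29 in wild-type rosiglitazone, and 7.47, 7.42 and 7.56 in knockout rosiglitazone. Irf9, the DNA-binding subunit of the type I complex, ranged from 8.05 to 8.59.

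Among the cytoplasmic RNA sensors, Ddx58 (RIG-I) ranged from 8.35 to 9.01 and Ifih1 (MDA5) from 7.27 to 7.72, each highest in the knockout vehicle array of mouse 44. Dhx58 (LGP2), their regulator, read 7.35 and 7.50 in wild-type vehicle, 7.11, 7.50 and 6.94 in wild-type rosiglitazone, 7.26 and 7.31 in knockout vehicle, and 7.14, 6.74 and 7.14 in knockout rosiglitazone. Its rosiglitazone differences were -0.24 (SE 0.19) in wild type and -0.28 (SE 0.19) in knockout, and in knockout the groups did not overlap. Neither passed the test.

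Modifiers of the response include the ubiquitin-like protein Isg15 and the protease Usp18, which removes it and damps receptor signalling. Usp18 read 7.46 in the vehicle and 6.83 in the rosiglitazone array of knockout mouse 44, against 5.88 and 6.08 in mouse 46 and 5.76 in mouse 45. Its wild-type values, 6.75 and 6.59 without drug and 6.34, 6.66 and 6.20 with it, lay between these. Isg15 read 3.88 and 3.90 in the vehicle and rosiglitazone arrays of mouse 44, 3.02 and 3.28 in those of mouse 46 and 3.06 in mouse 45, with 3.76 and 3.47 in wild-type vehicle and 3.39, 3.39 and 3.50 in wild-type rosiglitazone. For both genes mouse 44 was the highest knockout mouse in either treatment. The antibody receptor and ubiquitin ligase Trim21 went against this, with 5.39 and 6.26 in the knockout vehicle arrays of mice 44 and 46. It read 5.64, 5.64 and 5.95 in knockout rosiglitazone, 6.07 and 6.00 in wild-type vehicle and 5.77, 6.26 and 6.20 in wild-type rosiglitazone. Herc6, the mouse ligase for Isg15, ranged from 4.49 to 5.34, and Parp14, an ADP-ribosyltransferase, from 6.92 to 7.67.

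The interferon-inducible GTPases attack the vacuoles of intracellular pathogens. Gbp2 read 4.93 and 4.97 in wild-type vehicle, 4.87, 3.96 and 4.59 in wild-type rosiglitazone, 5.71 and 4.60 in knockout vehicle, and 5.18, 4.54 and 4.79 in knockout rosiglitazone. The wild-type groups did not overlap, but the response of -0.48 (SE 0.33) was -0.22 without the rosiglitazone array of mouse 47. Irgm1 read 6.98 and 7.16 in wild-type vehicle, 6.82, 7.31 and 7.13 in wild-type rosiglitazone, 7.41 and 7.34 in knockout vehicle, and 7.59, 7.31 and 7.07 in knockout rosiglitazone, with genotype differences of 0.31 (SE 0.20) in vehicle and 0.24 (SE 0.17) in rosiglitazone. Gbp3 ranged from 4.57 to 5.47. Secreted Lgals3bp read 10.94 and 10.72 in wild-type vehicle, 11.04, 10.85 and 10.76 in wild-type rosiglitazone, 10.89 and 10.91 in knockout vehicle, and 10.71, 10.73 and 10.92 in knockout rosiglitazone, a spread that set no group apart.

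Class II genes were mostly at the low end of the array. Cd74, the invariant chain, read 2.24 and 2.24 in wild-type vehicle, 2.31, 2.26 and 2.76 in wild-type rosiglitazone, 2.40 and 2.19 in knockout vehicle, and 2.41, 2.36 and 2.16 in knockout rosiglitazone. H2-Aa, a class II alpha chain, lay between 1.91 and 2.30, with 1.91 and 2.13 in wild-type vehicle, 1.91, 2.30 and 2.13 in wild-type rosiglitazone, 2.26 and 2.16 in knockout vehicle, and 2.15, 2.17 and 2.11 in knockout rosiglitazone. Ciita, the class II transactivator, read 2.54 and 2.46, then 2.50, 2.53 and 2.67, in wild type, and 2.56 and 2.55, then 3.03, 2.49 and 2.42, in knockout, for vehicle and rosiglitazone. All 3 genes lay below the median probe set level in every array.

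H2-Eb1, a class II beta chain, read 2.88 and 3.06 in wild-type vehicle, 2.69, 3.36 and 3.69 in wild-type rosiglitazone, 2.85 and 3.33 in knockout vehicle, and 2.40, 2.77 and 2.93 in knockout rosiglitazone. Its difference between genotypes in rosiglitazone was -0.55 (SE 0.25, adjusted p 0.999 by limma and Benjamini-Hochberg). H2-Ab1, the other beta chain, was the class II gene above the median level, with 4.72 and 4.13 in wild-type vehicle, 4.98, 4.50 and 4.64 in wild-type rosiglitazone, 5.21 and 4.16 in knockout vehicle, and 4.80, 3.63 and 4.63 in knockout rosiglitazone. It shared the extremes of the antiviral genes, highest in the knockout vehicle array of mouse 44 and lowest in the knockout rosiglitazone array of mouse 45. H2-Aa, H2-Ab1 and H2-Eb1 lie in a row after Psmb9, Tap1, Psmb8, Tap2 and H2-Ob on chromosome 17. In vehicle, H2-Aa was higher in both knockout arrays than in both wild-type arrays. H2-Ab1 and H2-Eb1 overlapped, and their differences of 0.26 and 0.12 turned to -0.27 without the vehicle array of mouse 44 and to -0.12 without that of mouse 46.

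The antiviral medians for genotype, in either treatment, and for rosiglitazone in knockout turned direction with 1 array left out, whereas the class I medians for genotype did not. In vehicle the antiviral genotype median of -0.05 became -0.33 without the knockout vehicle array of mouse 44 and 0.27 without that of mouse 46. The class I median of -0.22 stayed between -0.36 (without the wild-type vehicle array of mouse 42) and -0.16 (without that of mouse 47). In rosiglitazone the antiviral genotype median became 0.05 without the array of mouse 45 and -0.24 without the knockout array of mouse 44, and the class I median stayed between -0.21 and -0.05, the latter without the wild-type array of mouse 47. For rosiglitazone in knockout, the antiviral median of -0.19 became -0.38 without the vehicle array of mouse 46 and 0.10 without that of mouse 44, and the class I median of 0.13 became 0.0022 without the former. In wild type the antiviral median stayed between -0.19 and -0.07, and the class I median of -0.09 became 0.03 without the vehicle array of mouse 47. Without both arrays of mouse 46, the antiviral median was 0.27 for genotype in vehicle and -0.40 for rosiglitazone in knockout.

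**Figure D4:**
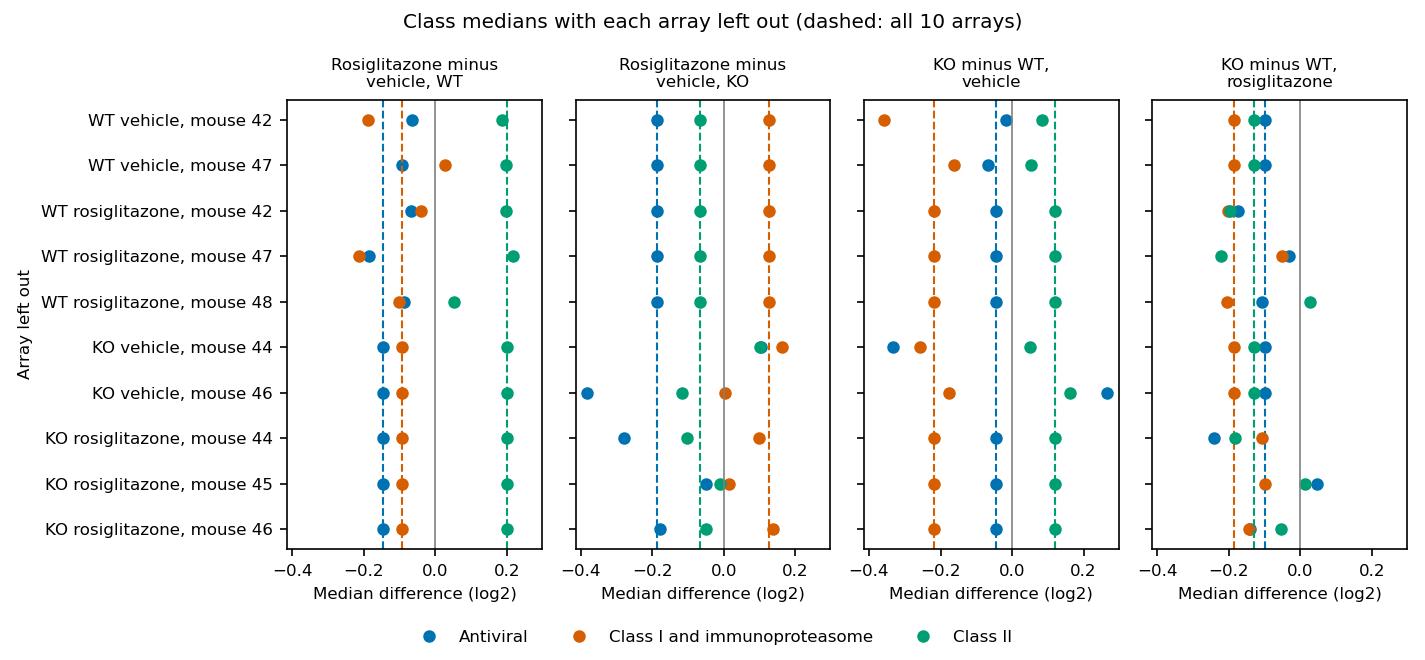
Median difference of each class (x axis, log2 units) with the array named on the y axis left out, for 4 comparisons, with dashed lines at the value from all 10 arrays and a grey line at 0. For genotype in vehicle the antiviral median crosses 0 (-0.33 to 0.27), while the class I median stays between -0.36 and -0.16.

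The lists of genes around the members gave no call at the adjusted threshold. Of 13 interferon ligand genes measured, 12 lay at or below the median probe set level, the exception being Ifnl2 with a mean of 5.44, whereas 13 of 13 receptor and signalling genes lay above it. Ifnar1, a chain of the type I receptor, had means of 7.60 in wild-type vehicle and 7.55 in knockout vehicle, Ifngr1, of the interferon gamma receptor, 10.12 and 10.41, and Ifnlr1, of the type III receptor, 5.30 and 5.25. None of the 13 ligand genes or 13 receptor and signalling genes reached limma's unadjusted p of 0.05 in any of the 5 comparisons. Of 54 other interferon-induced genes, 4 reached it for genotype in vehicle (3 of them lower in knockout) and 3 for genotype in rosiglitazone (1 lower). Of 22 other class I genes, 3 and 2 reached it, all lower in knockout. These shares are to be read beside 5.69% and 4.81% of all probe sets, and none of these genes passed the adjusted threshold. For rosiglitazone in knockout, 3 of 15 other class II genes (2 higher, 1 lower) reached limma's unadjusted p of 0.05. So did 1 of the 54, lower, and the share of all probe sets was 3.06%. For the difference of responses 1 of the 54 and 1 of the 22 reached it, both higher, against 2.32%. For genotype in rosiglitazone 1 of the 15 reached it (higher), and 1 of 11 genes of interferon induction did so in each genotype comparison (lower). The class I heavy chain H2-K1 had a mean of 10.18 in both vehicle groups. Of the proteasome activator, Psme1 had 8.01 in both, and Psme2 9.83 in wild-type and 9.38 in knockout vehicle (difference -0.45, SE 0.18, adjusted p 0.855 by limma and Benjamini-Hochberg).

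Chosen after their values were seen, Gbp9 and Irf8 followed Cxcl10 in part. Gbp9, a guanylate-binding protein, read 6.89 and 6.49 in wild-type vehicle and 5.77 and 5.80 in knockout vehicle, and 6.28, 6.43 and 6.58 against 5.59, 6.14 and 5.82 in rosiglitazone, lower in every knockout array. Its differences were -0.90 (SE 0.20, adjusted p 0.787) and -0.58 (SE 0.17, adjusted p 0.836 by limma and Benjamini-Hochberg). Among the 54 other interferon-induced genes, vehicle groups did not overlap in 7 lower and 7 higher, against 16.1% and 23% of all probe sets. In rosiglitazone these counts were 6 lower and 3 higher, against 4.47% and 4.22%. Irf8, a factor of the same family as Irf1, read 6.23 and 6.12 in wild-type vehicle and 4.93 and 5.12 in knockout vehicle, but overlapped between genotypes in rosiglitazone. Cd68 was also lower in knockout, with differences of -0.83 (SE 0.26) in vehicle and -0.90 (SE 0.21) in rosiglitazone, and the part of any other cell type in these differences was not tested.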

How the data were processed

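RNA of the 10 organoid samples was hybridised to Affymetrix whole-transcript arrays, per the labels' protocols. The deposited values are log2 intensities summarised by RMA, 1 per array for each of 35556 probe sets, and RMA is named in the submitters' processing notes without a version. The chip definition is not given in the sources used here. The annotation listed 23099 probe sets, and these were tested with limma 3.58.1 in R 4.3.3 (means of 4 groups over all 10 arrays, contrasts, eBayes, two-sided, Benjamini-Hochberg adjustment, threshold 0.05). The residual degrees of freedom were 6. The number of arrays limits the precision. Class medians were described without a test. The fit was tested on simulated data.

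Same-numbered mice pair the arrays of a genotype. Over the tested probe sets, the difference between 2 mice in vehicle correlated with that between the same mice in rosiglitazone. The correlation was 0.44 (mice 42 and 47) and 0.49 (mice 44 and 46). Mouse as a block, array weights, centring, quantile normalization, filters, the 4 paired mice and each array left out were alternatives, and leaving out both arrays of mouse 46 was chosen after seeing the data. The members and lists were chosen with earlier results of these data known. Values in every array are given for textbook members and for the 2 members of each role with the largest statistic in any comparison. Promoters came from RefSeq, GRCm38.p6.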

Additional observations from a re-analysis of the deposited data

Results flagged for a closer look

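The median within-mouse difference of the class I members (rosiglitazone minus vehicle) had opposite signs in the genotypes. It was -0.0547 in mouse 42 and -0.0358 in mouse 47, both wild type, and 0.0147 in mouse 44 and 0.125 in mouse 46, both knockout. The genes were split, with 4 of 8 higher in mice 42, 47 and 44 and 6 of 8 in mouse 46. Over all genes the within-mouse medians were 0.0147, -0.0131, 0.0103 and -0.0128 in mice 42, 47, 44 and 46. The class I median of mouse 44 was thus close to that of all genes. The mean of the knockout medians exceeded that of the wild-type medians by 0.115. Between arrays of a group the class I median had a pooled SD of 0.108. This difference was not tested. In the fit over all 10 arrays no class I member passed for the difference of the responses, by adjusted p (limma, Benjamini-Hochberg) or by limma's unadjusted p under 0.05. The epithelial markers showed the same signs, with within-mouse medians of -0.0256, -0.0442, 0.117 and 0.0174 in mice 42, 47, 44 and 46. In the fit over all arrays 11 of 12 of them had a higher difference in knockout, with a median of 0.128 beside 0.164 for class I. Their part in the class I result was not tested.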

How the results depend on the processing

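No member was called under any of the alternatives (limma, Benjamini-Hochberg), and the smallest adjusted p was 0.291, for genotype in rosiglitazone. The standard error of a member's difference had a median of 0.203 (genotype in rosiglitazone) to 0.321 (difference of responses), which limits what these arrays can resolve. With mouse as a fixed block, and with the 4 paired mice alone, the class II median for rosiglitazone in wild type was 0.0532 and the class I median in knockout 0.0136. With mouse as a random block the class II median for genotype in vehicle was 0.0384, and the block changed no call.

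Array weights gave class II medians of 0.119 (rosiglitazone in wild type) and -0.0437 (genotype in rosiglitazone), and the 4 paired mice 0.00443 for the latter. Repeated quantile normalization gave class II medians of -0.0798 (difference of responses) and 0.0351 (genotype in vehicle). Above the median level H2-Ab1 alone remained of class II, at -0.33 (rosiglitazone in knockout), -0.607 (difference of responses), 0.258 (genotype in vehicle) and -0.349 (genotype in rosiglitazone). Without both arrays of mouse 46 the antiviral medians were -0.401 (rosiglitazone in knockout), -0.305 (difference of responses) and 0.266 (genotype in vehicle).

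With each array left out in turn, antiviral medians ranged from -0.382 to 0.103 (rosiglitazone in knockout), -0.305 to 0.116 (difference of responses) and -0.332 to 0.266 (genotype in vehicle). For genotype in rosiglitazone the antiviral median ranged from -0.242 to 0.0454 and so took both signs as well. Class I medians ranged from -0.214 to 0.0258 (rosiglitazone in wild type), 0.00219 to 0.163 (in knockout), -0.359 to -0.162 (genotype in vehicle) and -0.206 to -0.0511 (in rosiglitazone). Class II medians ranged from 0.0532 to 0.217, -0.117 to 0.1, -0.293 to -0.0802 (difference of responses) and -0.221 to 0.0281 (genotype in rosiglitazone).

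Directions turned for Irf1 in the difference of responses (-0.0151 as the mean of its probe sets), Irf7 for genotype in vehicle (0.024 without both arrays of mouse 46) and Stat2 for genotype in rosiglitazone (0.0329 in the 4 paired mice). Of 125 differences, 5 for each of the 25 members given in every array, 63 turned with at least 1 array left out. Of the 51 above their own standard error 8 did so, within these ranges: Psmb8 with rosiglitazone in wild type from -1.04 to 0.00945; in knockout Irf1 from -0.126 to 0.497, Usp18 from -1.23 to 0.345 and Ifit3 from -1.85 to 0.103; Irf1 in the difference of responses from -0.00848 to 0.615. For genotype the ranges were -0.656 to 0.024 (Irf7) and -0.523 to 0.1 (Irf1) in vehicle, and -0.572 to 0.0121 (H2-Ab1) in rosiglitazone. The causes were not tested.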
